A study of Mus musculus with 6 samples.

Results

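The genes described here are 42 genes of protein folding in the endoplasmic reticulum (ER) and of the integrated stress response, chosen by name, of 19938 genes tested on the array. They comprise 13 chaperones and co-chaperones, 7 genes of disulfide formation, 2 of the translocon, 7 of ER-associated degradation, 6 sensors and transcription factors of the unfolded protein response, and 7 genes of the kind that Atf4 controls. Each gene was represented by the array row that carries its symbol alone, and for 3 genes with several such rows the row of highest mean was taken. Ero1lb was found under its newer symbol, Ero1b. The RNA came from whole pancreata of mouse embryos at E13.5. The β-catenin activated group holds 3 pools from embryos with Pdx1-Cre and 1 floxed exon 3 allele of β-catenin (Pdx1-Cre; Ctnnb1 tm1Mmt/+), and the wild type group holds 3 pools of pancreata with that label. Each pool combines 3 pancreata and was hybridized to 1 Affymetrix Mouse Gene 1.0 ST array. Cre is driven by the Pdx1 promoter, which is active in the pancreatic epithelium and not in the mesenchyme dissected with it. Whether the wild type embryos carried Cre or the floxed allele alone is not stated.

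Secretory cells fold their products in the ER. When folding lags, the unfolded protein response is started by 3 membrane proteins, the products of Ern1 (IRE1α), Eif2ak3 (PERK) and Atf6, which raise chaperones, disulfide enzymes and degradation factors. PERK also phosphorylates the translation factor eIF2, an event it shares with kinases that sense amino acid shortage, viral RNA and heme, and this integrated stress response favours translation of Atf4. The acinar cells of the pancreas, which make digestive enzymes, and the islet cells, which make hormones, are known for a large ER and for their dependence on this system.

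Most of the 42 genes did not pass the test between β-catenin activated and wild type pools. Of the 42, 6 were lower (Ern1, Atf6, Creb3l1, Ero1lb, Dnajc3 and Sesn2) and 1 was higher (Atf3) by limma (adjusted p below 0.05), while 35 did not pass. Over all genes tested, 7.53% were lower and 6.59% were higher by the same rule. The median log2 change of the 42 genes, β-catenin activated minus wild type, was 0.00, with a range from -1.08 to 0.52, beside a median of 0.03 over all genes. The 3 arrays of each genotype did not overlap for 12 members that were lower and 3 that were higher in the β-catenin activated pools. Over all genes, 13.9% were lower and 16.9% higher without overlap. By function, 3 of the 6 sensors and transcription factors were lower, as were 1 of the 13 chaperone genes and 1 of the 7 genes of disulfide formation. Of the 7 Atf4-type genes, 1 was lower and 1 higher.

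**Figure D1:**
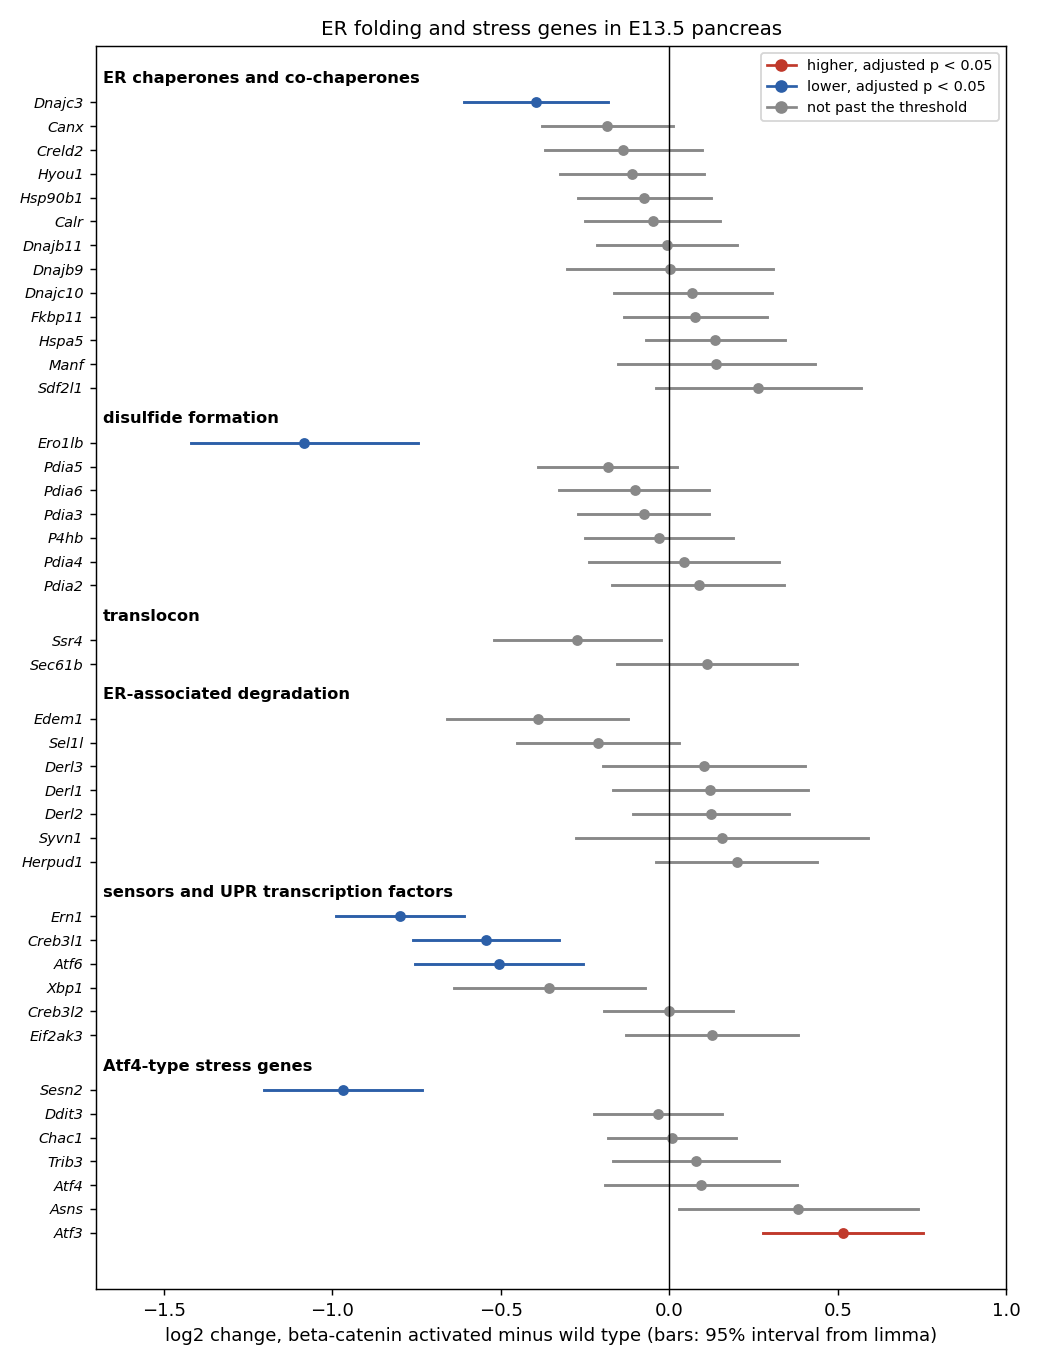
Log2 change of each of the 42 genes (horizontal axis, β-catenin activated minus wild type, 3 pools each) with its 95% interval from limma, grouped by function (vertical axis). Blue genes were lower and red genes higher at an adjusted p under 0.05; grey genes did not pass, and 12 of the 13 chaperones lie between -0.18 and 0.27.

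Across genes, which are not independent replicates, Pearson's r was 0.993 to 0.997 within a genotype and 0.973 to 0.979 between genotypes. Ctnnb1, the targeted gene, had 12.64, 12.37 and 12.65 (log2) in the β-catenin activated pools, against 12.36, 12.14 and 12.33 in the wild type pools (log2 change 0.28, standard error 0.11, adjusted p = 0.148). It passed without β-catenin activated replicate 2 (adjusted p = 0.0486), and a value over the whole transcript does not check the loss of exon 3. The number of arrays limits the precision of every value below.

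Among the sensors, Ern1, the kinase and RNase that splices the Xbp1 message, was the clearest decrease. It had 7.97, 7.92 and 8.01 (log2) in the β-catenin activated pools, against 8.76, 8.77 and 8.77 in the wild type pools. The groups were far apart and the pools of each genotype nearly equal, a 1.74-fold decrease (log2 change -0.80, standard error 0.085, adjusted p = 0.000152). Atf6, a membrane-bound transcription factor that is released by cleavage in the Golgi, had 8.70, 8.62 and 8.52 in the β-catenin activated pools, against 9.31, 8.95 and 9.10 in the wild type pools. Again no pool overlapped, with a 1.42-fold decrease (log2 change -0.51, standard error 0.11, adjusted p = 0.013). The call of Atf6 was lost without wild type replicate 1 (adjusted p = 0.0556), whose value was the highest, or β-catenin activated replicate 3 (adjusted p = 0.0516), within a range of 0.00172 to 0.0596 over its alternatives. Eif2ak3, the PERK kinase that links ER stress to eIF2, had 8.16, 7.92 and 8.12 in the β-catenin activated pools, against 7.98, 8.08 and 7.75 in the wild type pools. These groups overlap, and the log2 change of 0.13 did not pass (95% interval -0.13 to 0.38, adjusted p = 0.563). The log2 change of Ern1 minus that of Eif2ak3 was -0.93. In the difference between the genes, every β-catenin activated pool lay below every wild type pool. An exact permutation test (two-sided) gave p = 0.1, the smallest that 3 pools against 3 allow, and 0.1 after adjustment over the 4 gene pairs compared. All 4 pairs were chosen after their values were seen, so their p-values are no support for a difference.

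Among the other transcription factors of this group, Creb3l1 was lower, while Xbp1 and Creb3l2 did not pass. Creb3l1, a membrane-bound factor of the Atf6 type known from bone, where it raises collagen secretion, had 9.53, 9.73 and 9.55 in the β-catenin activated pools, against 10.22, 10.16 and 10.07 in the wild type pools. It fell 1.46-fold with no overlap (log2 change -0.54, standard error 0.097, adjusted p = 0.00384). Xbp1, the factor that spliced message encodes and that secretory cells need, had 11.17, 10.80 and 11.06 in the β-catenin activated pools, against 11.20, 11.54 and 11.36 in the wild type pools. Its groups did not overlap, but replicate 1 of each genotype differed by little and the log2 change of -0.36 did not pass (95% interval -0.64 to -0.07, adjusted p = 0.101). The array gives 1 value for Xbp1, so spliced and unspliced message are not told apart. Creb3l2, the close relative of Creb3l1 known from cartilage, had a log2 change of 0.00 (95% interval -0.19 to 0.19, adjusted p = 0.992), with pools between 10.23 and 10.31 in both genotypes.

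**Figure D2:**
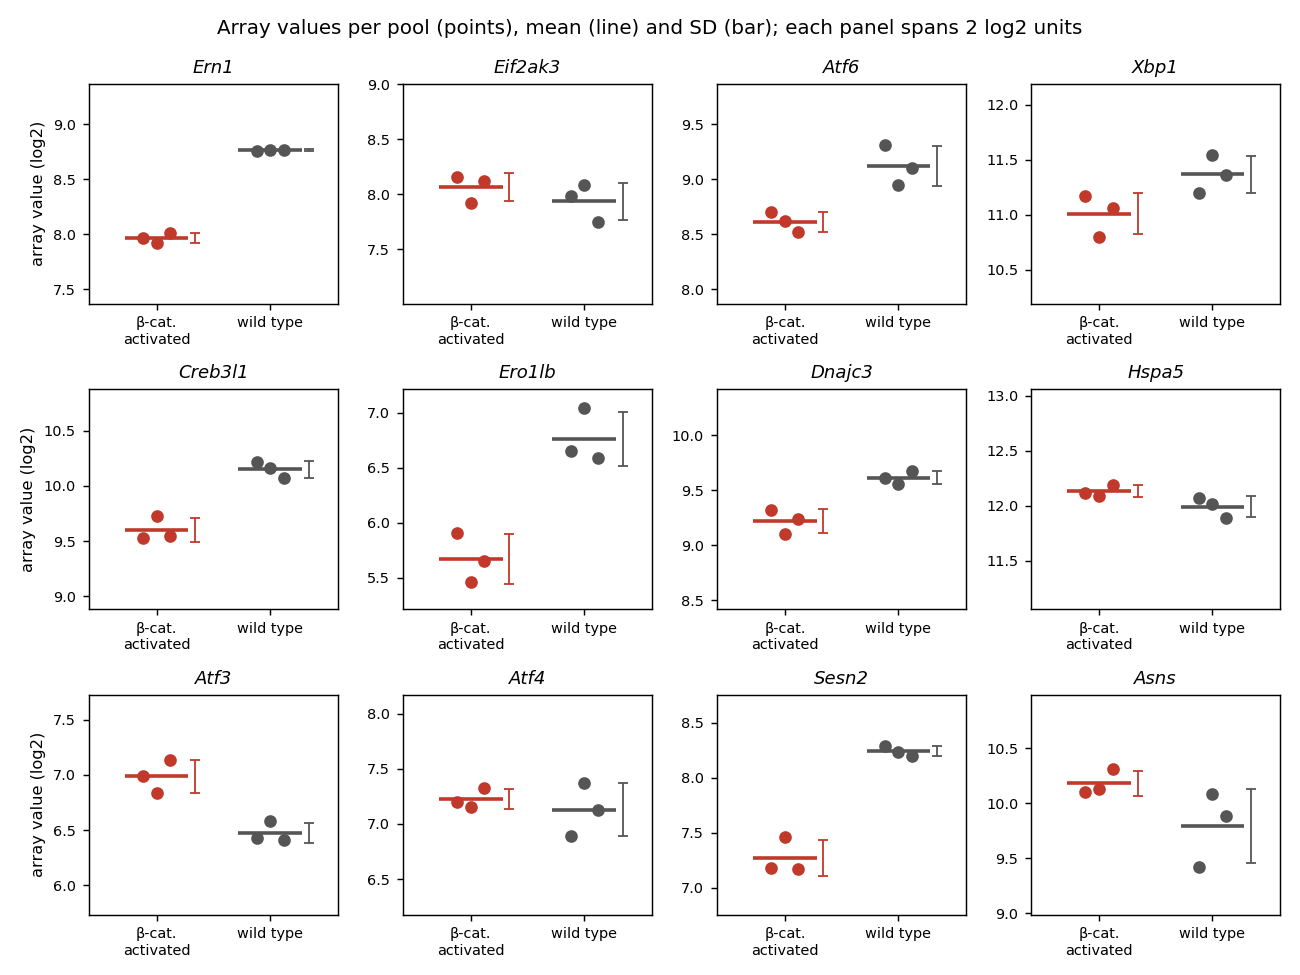
Array values (log2, vertical axes, each spanning 2 units) of 12 genes in 3 β-catenin activated pools (red, left) and 3 wild type pools (grey, right). Points are pools, lines are means and bars are SD. The genotypes are separate for Ern1, Atf6, Creb3l1, Ero1lb, Dnajc3, Sesn2 and Atf3, and also for Xbp1, Hspa5 and Asns, which did not pass. They overlap for Eif2ak3 and Atf4.

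Of the 13 chaperone genes, whose products bind unfolded chains, 12 did not pass. Hspa5 (BiP), the main ER chaperone and the usual readout of the response, had 12.12, 12.09 and 12.19 (log2) in the β-catenin activated pools, against 12.07, 12.02 and 11.89 in the wild type pools. The β-catenin activated pools were all slightly higher, yet the log2 change of 0.14 did not pass (95% interval -0.07 to 0.34, adjusted p = 0.413), and an increase above 0.34 lies outside the interval. Hsp90b1 (GRP94), an ER chaperone of the Hsp90 family, had a log2 change of -0.07 (95% interval -0.27 to 0.12). Of the lectin chaperones, which hold glycoproteins in the folding cycle, Calr had -0.05 (95% interval -0.25 to 0.15) and Canx -0.18 (95% interval -0.38 to 0.01, no overlap, adjusted p = 0.222). The nucleotide exchange factor gene Hyou1 had a log2 change of -0.11, and the BiP co-chaperone genes Dnajb9, Dnajb11 and Dnajc10 had 0.00, -0.01 and 0.07. Sdf2l1, whose product works with Dnajb11, had 0.27 (95% interval -0.04 to 0.57, adjusted p = 0.269), and 0.12 without wild type replicate 3. The stress-induced secreted proteins Manf and Creld2 had 0.14 and -0.14, and the prolyl isomerase gene Fkbp11 had 0.08.
Dnajc3 (P58IPK), a co-chaperone of BiP also known as an inhibitor of eIF2 kinases, was the exception. It had 9.32, 9.10 and 9.24 in the β-catenin activated pools, against 9.61, 9.56 and 9.68 in the wild type pools, a 1.32-fold decrease with no overlap (log2 change -0.40, standard error 0.095, adjusted p = 0.0204). The call was lost without wild type replicate 1 or 3 (adjusted p = 0.0673 and 0.0725) or without β-catenin activated replicate 2 or 3 (adjusted p = 0.051 and 0.0505), within a range of 0.00812 to 0.0725 over its alternatives.

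Many of these genes carry the ER stress response element (ERSE), the site of Atf6 and NF-Y, whose letters are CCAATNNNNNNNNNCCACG. RefSeq promoters of assembly GRCm38.p6, 250 bases before to 50 after the annotated start, were found for 37 of the 42 genes. On either strand 10 of these genes, 27%, held the ERSE. In the whole table, which counts promoters rather than genes and includes those of the members, 39 of 32851 held it (0.119%). As the 42 genes were chosen by name for their part in ER folding and stress, these shares are a description and no test of enrichment. The 11 sites, shown because they set the chaperones that did not pass beside Dnajc3 and Ero1lb, which were lower, read as follows in the direction of the motif, with its fixed bases in capitals.
Hspa5, chr2:34772025-34772043, plus strand: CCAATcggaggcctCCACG
Hsp90b1, chr10:86705638-86705656, minus strand: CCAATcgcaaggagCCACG
Hsp90b1, chr10:86705533-86705551, plus strand: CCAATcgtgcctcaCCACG
Calr, chr8:84847075-84847093, plus strand: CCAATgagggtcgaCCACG
Canx, chr11:50325800-50325818, minus strand: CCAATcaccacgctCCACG
Dnajc3, chr14:118937827-118937845, plus strand: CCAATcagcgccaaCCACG
Creld2, chr15:88819520-88819538, minus strand: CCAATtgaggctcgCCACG
Pdia6, chr12:17266491-17266509, plus strand: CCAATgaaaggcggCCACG
Ero1lb, chr13:12565682-12565700, minus strand: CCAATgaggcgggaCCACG
Syvn1, chr19:6046532-6046550, plus strand: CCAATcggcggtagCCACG
Derl3, chr10:75893242-75893260, minus strand: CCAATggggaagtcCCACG
Of the 10 genes with an ERSE, 2 were lower (Dnajc3 and Ero1lb) and none was higher. Over all genes tested, 7.53% were lower and 6.59% higher. The median log2 change of the 10 genes with an ERSE was -0.09, from -1.08 to 0.16. A related motif, ERSE-II (ATTGGNCCACG, both strands), was found in Herpud1 and Dnajb11 and in 12 of all promoters (0.0365%). The Atf6 and Xbp1 motif called UPRE (TGACGTG, both strands) was found in Hspa5 and Fkbp11 and in 661 of all promoters (2.01%). No site of 1 motif overlapped a site of another in these genes, and a match to the letters is a description, not evidence of binding.

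**Figure D3:**
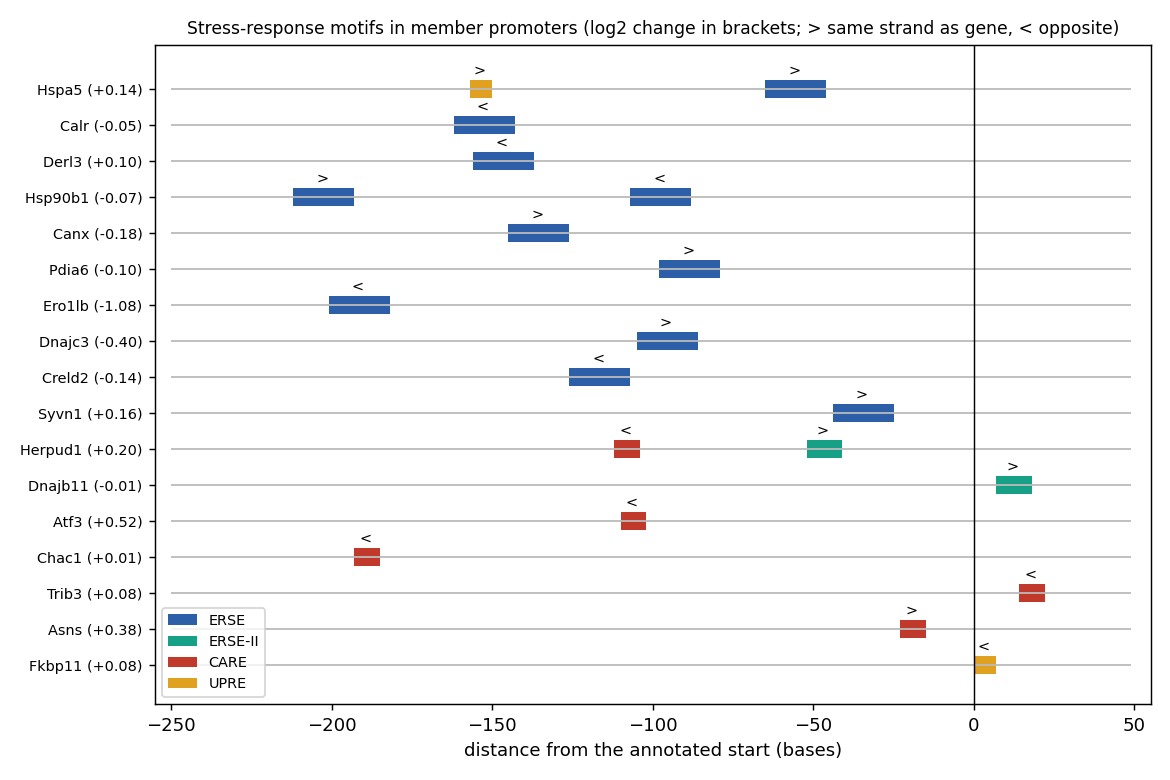
Position of 4 motifs in the promoters of the genes that hold any (horizontal axis, bases from the annotated start at 0; 1 line per gene with its log2 change in brackets). Bars are ERSE (blue), ERSE-II (green), CARE (red) and UPRE (yellow); the ERSE sites lie between -212 and -26.

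The promoters of Hspa5, which did not pass, and Ero1lb, which was lower, are given whole, with bases that match a motif in capitals and the spacer within a motif in lower case. In Ero1lb the ERSE lies on the strand opposite to the gene.
Hspa5, chr2:34771840-34772139, plus strand: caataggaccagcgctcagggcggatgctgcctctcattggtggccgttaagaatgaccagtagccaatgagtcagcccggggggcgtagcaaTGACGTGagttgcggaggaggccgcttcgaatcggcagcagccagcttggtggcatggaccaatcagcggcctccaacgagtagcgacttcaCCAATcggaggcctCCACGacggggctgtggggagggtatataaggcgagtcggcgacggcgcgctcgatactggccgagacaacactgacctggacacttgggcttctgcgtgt
Ero1lb, chr13:12565633-12565932, plus strand: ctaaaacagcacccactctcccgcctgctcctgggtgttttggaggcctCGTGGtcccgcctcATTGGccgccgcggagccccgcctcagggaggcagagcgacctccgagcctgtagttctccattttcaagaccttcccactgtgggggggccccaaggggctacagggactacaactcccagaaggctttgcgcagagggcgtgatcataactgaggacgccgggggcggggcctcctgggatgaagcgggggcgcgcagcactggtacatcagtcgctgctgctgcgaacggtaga

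Disulfide formation held the largest decrease of all 42 genes. Ero1lb, which encodes an oxidase that recharges protein disulfide isomerases and is known for high levels in the pancreas, had 5.91, 5.46 and 5.65 (log2) in the β-catenin activated pools, against 6.65, 7.04 and 6.59 in the wild type pools. The groups were well separated, a 2.12-fold decrease (log2 change -1.08, standard error 0.15, adjusted p = 0.00083). The mean of Ero1lb over all arrays, 6.22, lay below the median of all genes tested. The related oxidase gene Ero1a, looked up after these values were seen, had 9.56, 9.49 and 9.37 in the β-catenin activated pools, against 9.66, 9.51 and 9.47 in the wild type pools. Its log2 change was -0.07 (95% interval -0.29 to 0.15, adjusted p = 0.728). The change of Ero1lb minus that of Ero1a was -1.01 (exact permutation test, two-sided, p = 0.1, the smallest possible, and 0.1 after adjustment over the 4 pairs). As this pair was chosen after its values were seen, the p-value is no support for a difference.
The isomerases themselves, which make and reshuffle disulfides, did not pass. P4hb, the founding protein disulfide isomerase, had a log2 change of -0.03 (95% interval -0.25 to 0.19), Pdia3, the partner of the lectin chaperones, had -0.08, Pdia4 had 0.04 and Pdia6 had -0.10. Pdia5 had -0.18 with no overlap between the genotypes (95% interval -0.39 to 0.02, adjusted p = 0.261). Pdia2, the isomerase known from the pancreas, had values between 4.34 and 4.63 in the β-catenin activated pools and between 4.35 and 4.59 in the wild type pools, and its mean lay below the lower quartile of all genes tested.

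Entry into and removal from the ER showed no gene past the threshold in limma. At an unadjusted p under 0.05 Ssr4 and Edem1 were lower, beside 2386 of all 19938 genes tested. Ssr4, a subunit of the translocon-associated complex, had 9.84, 9.77 and 10.02 in the β-catenin activated pools, against 10.06, 10.32 and 10.06 in the wild type pools. It was lower without overlap, with a log2 change of -0.27 (95% interval -0.52 to -0.03, adjusted p = 0.151). Sec61b, the β subunit of the channel, had 0.11, and its other array rows gave 0.08 and 0.06. In ER-associated degradation, which returns misfolded chains to the cytosol, Edem1, a lectin that marks glycoproteins for removal, had 10.29, 9.91 and 10.02 in the β-catenin activated pools, against 10.31, 10.56 and 10.51 in the wild type pools. Replicate 1 of each genotype nearly met, and the log2 change of -0.39 was just short of the threshold (adjusted p = 0.0607, range 0.0339 to 0.249 over its alternatives); without β-catenin activated replicate 1 it passed (log2 change -0.50, adjusted p = 0.0342), as it did with all 6 arrays under quantile normalization (0.0339), with genes above the lower quartile or the median level (0.0409 and 0.0374) and with a trended and robust prior (0.0342). Sel1l, the adaptor of the Hrd1 ubiquitin ligase, had -0.21, and the ligase gene Syvn1 itself 0.16 (95% interval -0.28 to 0.59), with wild type pools from 8.65 to 9.49. The channel proteins Derl1, Derl2 and Derl3 had 0.12, 0.12 and 0.10, and Herpud1, a stress-induced scaffold of the ligase, had 0.20 (95% interval -0.04 to 0.44). With array weights in limma, Ssr4 passed as lower (adjusted p = 0.03) and Herpud1 as higher (adjusted p = 0.0164). Over all genes, 2422 were lower and 3025 higher with these weights.

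Of the 7 Atf4-type genes 1 was lower and 1 higher, and Atf4 itself did not pass. Over all genes tested, 7.53% were lower and 6.59% higher. Atf4 had 7.20, 7.15 and 7.33 (log2) in the β-catenin activated pools, against 6.89, 7.37 and 7.13 in the wild type pools, with the wild type pools on either side (log2 change 0.09, 95% interval -0.19 to 0.38, adjusted p = 0.73). As Atf4 is controlled mainly through translation, its message is no measure of its protein. Ddit3 (CHOP), the factor linked to death under lasting stress, had 6.88, 6.93 and 6.87 in the β-catenin activated pools, against 6.93, 6.88 and 6.97 in the wild type pools. The groups lay on top of each other (log2 change -0.03, 95% interval -0.22 to 0.16, adjusted p = 0.871).
Atf3, a stress-induced repressor that also answers growth signals, was the only member past the threshold upward, with 6.99, 6.84 and 7.14 in the β-catenin activated pools, against 6.43, 6.58 and 6.41 in the wild type pools. No pool overlapped, and the increase was 1.43-fold (log2 change 0.52, standard error 0.11, adjusted p = 0.00851). Its log2 change minus that of Atf4 was 0.42 (exact permutation test, two-sided, p = 0.1, the smallest possible, and 0.1 after adjustment over the 4 pairs). This pair too was chosen after its values were seen, so the p-value is no support for a difference. Asns, which makes asparagine and is a standard Atf4 target, had 10.10, 10.13 and 10.31 in the β-catenin activated pools, against 9.42, 10.08 and 9.88 in the wild type pools. The lowest β-catenin activated pool and the highest wild type pool were almost equal, and the log2 change of 0.38 did not pass (95% interval 0.03 to 0.74, adjusted p = 0.16). It was 0.19 without wild type replicate 1, the lowest pool, and 0.53 without wild type replicate 2, neither past the threshold, and with array weights it passed (adjusted p = 0.026).
Sesn2, whose product senses leucine and restrains mTORC1 and which p53 also controls, moved in the opposite direction. It had 7.18, 7.46 and 7.17 in the β-catenin activated pools, against 8.29, 8.23 and 8.20 in the wild type pools. That is a 1.96-fold decrease with a wide gap between the groups (log2 change -0.97, standard error 0.10, adjusted p = 0.000164). The change of Sesn2 minus that of Asns was -1.35 (exact permutation test, two-sided, p = 0.1, the smallest possible, and 0.1 after adjustment over the 4 pairs). The choice of this pair also followed its values, so the p-value is no support for a difference. Trib3, a pseudokinase induced by Atf4 and Ddit3, and Chac1, which degrades glutathione, had log2 changes of 0.08 (95% interval -0.17 to 0.33) and 0.01 (95% interval -0.18 to 0.20). The means of Ddit3, Atf3, Trib3 and Chac1 over all arrays, 6.91, 6.73, 6.13 and 6.61, lay below the median of all genes tested.

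The C/EBP-ATF response element (CARE), the site of Atf4 with C/EBP factors, was searched as TGATGNAA on both strands. Of the 37 genes with a promoter, 5 held it, beside 1304 of 32851 promoters in the whole table, the members' included (3.97%). Of the 5, 4 are genes of the Atf4 group, which was chosen for control by Atf4, so this is no test of enrichment. The sites are shown to set Atf3, which was higher, beside members with the same element that did not pass, with fixed bases in capitals.
Atf3, chr1:191183436-191183443, plus strand: TGATGcAA
Asns, chr6:7693225-7693232, minus strand: TGATGaAA
Chac1, chr2:119351049-119351056, minus strand: TGATGcAA
Trib3, chr2:152344039-152344046, plus strand: TGATGtAA
Herpud1, chr8:94386317-94386324, minus strand: TGATGcAA
The 5 genes had log2 changes from 0.01 to 0.52, with a median of 0.20. Of these, 1 was called higher, beside 6.59% of all genes tested. The promoter of Atf3, the increased member, is given whole in the direction of the gene, where the element appears as its reverse complement in capitals.
Atf3, chr1:191183284-191183583, minus strand: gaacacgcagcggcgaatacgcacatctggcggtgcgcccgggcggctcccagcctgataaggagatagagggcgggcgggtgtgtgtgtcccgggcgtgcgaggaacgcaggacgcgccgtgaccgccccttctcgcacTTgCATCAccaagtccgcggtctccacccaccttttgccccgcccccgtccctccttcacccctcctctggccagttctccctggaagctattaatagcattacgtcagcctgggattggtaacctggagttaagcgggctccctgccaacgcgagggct

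Set side by side, the 13 chaperones had a median log2 change of -0.01 (1 lower, none higher) and the 7 Atf4-type genes one of 0.08 (1 lower, 1 higher). The mean array value over the chaperones lay between 9.83 and 9.90 (log2) in the β-catenin activated pools and between 9.85 and 9.93 in the wild type pools. Over the Atf4-type genes it lay between 7.33 and 7.34 in the β-catenin activated pools and between 7.24 and 7.40 in the wild type pools, so that in both groups the genotypes overlapped. The mean over the genes of disulfide formation did not overlap, at 9.13 to 9.25 in the β-catenin activated pools and 9.32 to 9.40 in the wild type pools. Nor did the mean over all 42 genes, at 9.07 to 9.14 in the β-catenin activated pools and 9.15 to 9.26 in the wild type pools, or that over the 35 genes outside the Atf4 group, at 9.42 to 9.51 in the β-catenin activated pools and 9.52 to 9.63 in the wild type pools. Of the 7 genes of disulfide formation, Ero1lb had a log2 change of -1.08, while the other 6 had -0.18 to 0.09 and did not pass. The median log2 change was 0.00 over the 42 genes and -0.03 over the 35. For the 6 sensors and transcription factors the mean array value lay between 9.22 and 9.31 in the β-catenin activated pools, below the 9.55 to 9.63 of the wild type pools, with a median log2 change of -0.43. No test was made of these means, since the genes were chosen with results of these arrays known.

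Other genes of the same machinery were counted in the same way. Over all 19938 genes tested, 6.59% were higher and 7.53% lower. At an unadjusted p under 0.05, 2695 were higher and 2386 lower, and with array weights 3025 were higher and 2422 lower. Of 45 further genes of ER folding and quality control, 3 were higher and 3 lower, with a median log2 change of -0.04. Kdelr3, a receptor that returns ER proteins from the Golgi, rose (log2 change 0.79, standard error 0.18), as did the ER calcium-binding protein gene Rcn1 (0.56, standard error 0.092), and Os9, a lectin of ER-associated degradation, fell (-0.52, standard error 0.11). Without wild type replicate 1 or β-catenin activated replicate 3, 1 of the 45 was higher and 1 lower. Without wild type replicate 2 or β-catenin activated replicate 1 or 2, 1 was lower, and without wild type replicate 3, 1 was higher. None of 35 further translocon, signal peptidase and glycosylation genes passed, with changes from -0.23 to 0.36, of which Sec61a2 had the smallest p (log2 change 0.29, adjusted p = 0.116), and at an unadjusted p under 0.05, 3 were higher. Without wild type replicate 2, 1 of the 35 was higher, and with array weights 4 were higher and 1 lower.
Of 33 further genes of the integrated stress response, 3 were higher and 7 lower, beside 6.59% and 7.53% of all genes, with a median log2 change of 0.01. Nupr1, a stress-induced chromatin protein known from pancreatic injury, fell to a mean of 6.23 in the β-catenin activated pools, against 8.43 in the wild type pools (log2 change -2.19, standard error 0.16, adjusted p = 1.28e-05). Gadd45a, a growth arrest gene that p53 also controls, fell as well (-1.27, standard error 0.11), while Slc7a11, the cystine transporter, rose to a mean of 6.71 in the β-catenin activated pools, against 5.35 in the wild type pools (1.36, standard error 0.17, adjusted p = 0.000488). None of 16 aminoacyl-tRNA synthetase genes passed, with changes from -0.29 to 0.14, led by Sars (-0.29, adjusted p = 0.0829), and 3 were lower at an unadjusted p under 0.05. With array weights 3 were lower and 1 higher. Among 12 cytosolic heat shock genes, Bag3, a co-chaperone of Hsp70, rose (0.39, standard error 0.10, adjusted p = 0.0271) and no other passed, and this call was lost without wild type replicate 3 or any 1 β-catenin activated pool.

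**Figure D4:**
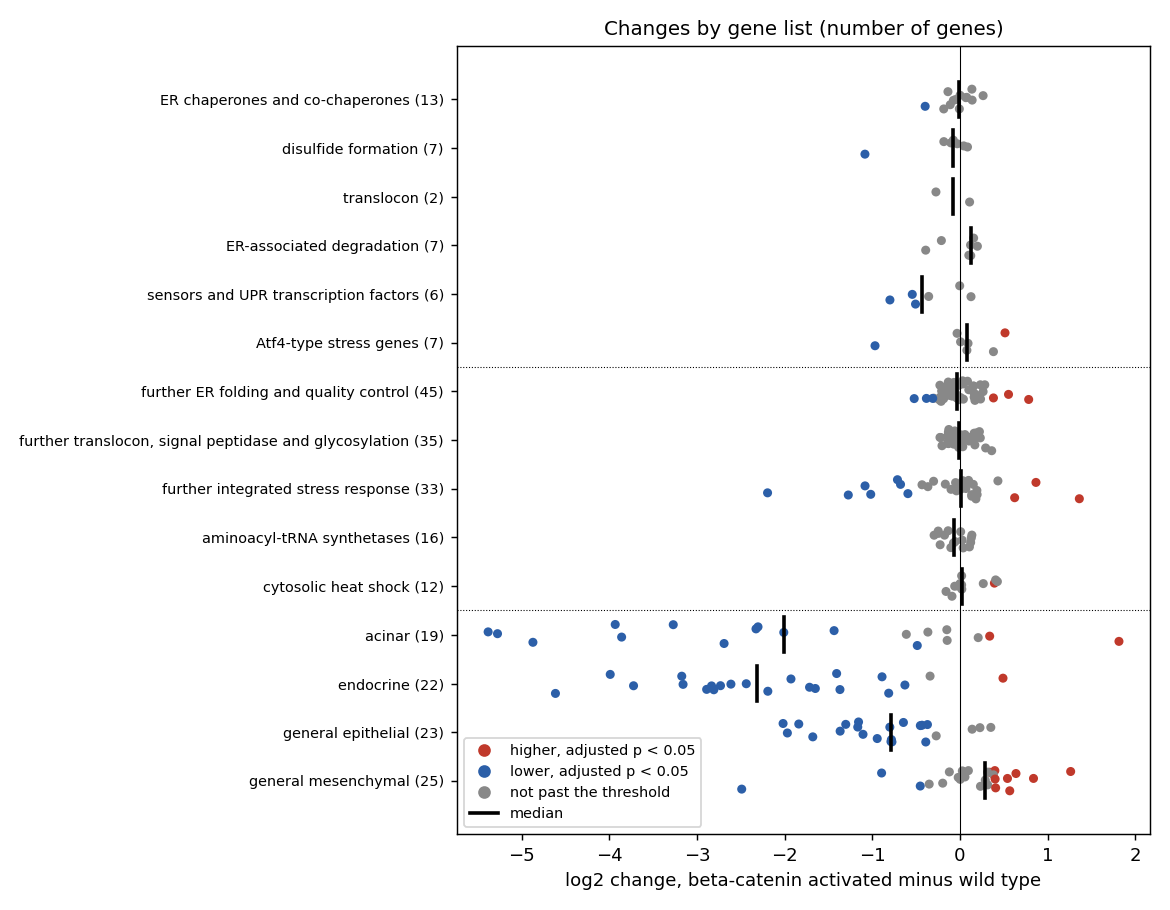
Log2 change (horizontal axis, β-catenin activated minus wild type) of each gene, by list (vertical axis, number of genes in brackets). Blue genes were lower and red genes higher at an adjusted p under 0.05, black bars are medians; the acinar and endocrine lists have medians of -2.01 and -2.31, while the ER lists have medians between -0.43 and 0.12.

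Marker genes of the secretory cells that this machinery serves were lower on the same arrays. Of 19 acinar genes 12 were lower and 2 higher, with a median log2 change of -2.01, led by the chymotrypsinogen gene Ctrb1 (-5.38, standard error 0.31) and the lipase-related gene Pnliprp1 (-5.28, standard error 0.27). The 2 that were higher were Rnase1 and Cpa3, a carboxypeptidase of mast cells, and 1 was higher without any 1 wild type pool or without β-catenin activated replicate 1 or 2. Of 22 endocrine genes 20 were lower and 1 higher, with a median of -2.31, led by Neurog3 (-4.61, standard error 0.19) and Neurod1 (-3.99, standard error 0.17). The gene that was higher was the LIM homeodomain factor gene Isl1 (0.49, adjusted p = 0.0259), and 0 were higher without β-catenin activated replicate 1 or 3 or wild type replicate 1 or 3. Of 23 general epithelial genes 19 were lower, with a median of -0.79, led by Prss8 (-2.02) and Ehf (-1.97). The mean over the acinar list lay between 6.15 and 6.34 (log2) in the β-catenin activated pools and between 7.83 and 8.61 in the wild type pools, and that of the endocrine list between 6.93 and 6.96 in the β-catenin activated pools and between 8.93 and 9.36 in the wild type pools. General epithelial genes averaged 8.79 to 8.92 in the β-catenin activated pools and 9.62 to 9.87 in the wild type pools. Among 25 general mesenchymal genes 9 were higher and 3 lower, with a mean of 9.41 to 9.55 in the β-catenin activated pools and 9.35 to 9.43 in the wild type pools, Prrx1 (-2.49) and Tcf21 (1.26) having the largest changes. The number of mesenchymal genes that were higher was 4 without β-catenin activated replicate 1 and 5 without β-catenin activated replicate 3 or wild type replicate 2. Of 16 liver genes 8 were lower, led by Serpina6 (-5.39) and Ambp (-4.97), with a mean of 6.30 to 6.39 in the β-catenin activated pools and 7.76 to 7.83 in the wild type pools. The other 8 did not pass, among them Alb (-0.50, adjusted p = 0.441) and Afp (-0.12, adjusted p = 0.599). Ttr, which was lower, is counted in both the liver and the endocrine list. None of 14 macrophage and leukocyte genes passed (mean 7.41 to 7.67 in the β-catenin activated pools, 7.40 to 7.61 in the wild type pools), nor any of 8 plasma and B cell genes (mean 5.94 to 6.02 in the β-catenin activated pools, 5.88 to 5.97 in the wild type pools). At an unadjusted p under 0.05, 1 macrophage and leukocyte gene was higher and 1 lower, and 0 plasma and B cell genes passed. Without β-catenin activated replicate 2, 1 macrophage and leukocyte gene was higher, and with array weights 2 were higher and 1 lower. In whole tissue, fewer cells of a type and less RNA per cell cannot be told apart, and the part of these shifts in the decreases of Ern1, Atf6, Creb3l1, Ero1lb, Dnajc3 and Sesn2 was not tested.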

How the data were processed

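The authors deposited log2 expression values, 1 row per transcript cluster of the Affymetrix array and 1 column per pool; they look normalized between arrays, by steps not given in the sources used here. The authors tested with limma. The labels gave genotype and replicate number, and the methods the number of pancreata in a pool. Of 35556 rows, 21789 had 1 symbol in the platform annotation, 1621 several and 12146 none; rows with 1 symbol were used, and for the 999 genes with several rows the one with the highest mean, which left 19938 genes. Entrez identifiers matched RefSeq (GRCm38.p6) for 21698 rows and changed 0 symbols.

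β-catenin activated and wild type pools were compared with limma 3.58.1 under R 4.3.3 (functions lmFit and eBayes, default prior, no covariate, no filter). P-values were adjusted by Benjamini-Hochberg across all tested genes, with a threshold of 0.05; intervals are 95% intervals of the same fit. The fit was tested on simulated data. Sequences were searched, and figures drawn, with Python 3.11.15, pandas 2.3.3 and matplotlib 3.10.9. Pools of 1 genotype are independent pools by the methods.

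The 42 genes and all lists were chosen with earlier results of these data known, so no test is made over a list. Values in every pool are given for called members and for Hspa5, Xbp1, Atf4, Ddit3 and Eif2ak3 by rule, and for Asns, Edem1 and Ssr4 after their values were seen. Of the further lists the rule names up to 3 genes with the largest change past the threshold (2 for lists of other cell types) or the one with the smallest p; where none of another cell type passed, the highest expressed, C1qb (log2 change 0.15) and Sdc1 (-0.13). Rnase1, Cpa3, Isl1, Ero1a and the genes of the closing section were named after their values were seen.

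Alternatives were a block on the replicate number, leaving out each array, arrays centred on medians or on 12 housekeeping genes, quantile normalization, genes above the lower quartile or the median of level, averaging a gene's rows, testing every row of the table, array weights, a robust prior with a trend, an unadjusted p of 0.05 and an adjusted p of 0.01. The 4 differences between pairs of genes were added later. Of the lists, genes that no single-symbol row names are not analysed here.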

Additional observations from a re-analysis of the deposited data

How the results depend on the processing

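Each of the 18 alternatives kept the direction of all 7 called members that it tested, and the calls of Ern1, Creb3l1, Ero1lb, Sesn2 and Atf3 held under every alternative in which they were tested. Over the arrays left out in turn, 4 to 7 of the 42 genes were lower and 1 was higher. Of all 19938 genes, 1132 to 1413 were lower and 843 to 1328 higher in these fits. Among the chaperones, 0 to 1 were lower, with medians from -0.06 to 0.02, and the Atf4-type median ran from -0.01 to 0.08. With all rows of the table, or at an adjusted p of 0.01, 0 chaperones and 4 of the 42 genes were lower, as Dnajc3 and Atf6 no longer passed. Of all 19938 genes, 1028 were lower with all rows and 1022 at an adjusted p of 0.01. Among genes above the median level 0 members and 0 Atf4-type genes were higher, since that filter leaves out Atf3. It also leaves out Ero1lb, so that 0 genes of disulfide formation were lower. With array weights 4 members were higher, 1 of them a chaperone (Sdf2l1) and 2 Atf4-type genes, whose median was 0.15; over all genes 3025 were then higher and 2422 lower, against 1313 and 1502. At an unadjusted p of 0.05, 2 members were higher, both Atf4-type genes, and 9 lower. Of all 19938 genes, 2695 were higher and 2386 lower at that cut.
With the replicate number as a block, 6 members were lower and 1 higher, and no member's call changed. Whether the numbers pair the pools is not stated. Deviations of same-numbered pools from their group means correlated at 0.01, -0.15 and -0.05, which shows no shared shift but cannot settle it. The block is given for completeness, and over all genes it left 1011 higher and 1274 lower. With arrays centred on their medians 1667 genes were higher and 1375 lower, and the members' counts stayed at 1 and 6. With every row tested, 751 genes were higher, at an adjusted p of 0.01, 723 were, and without β-catenin activated replicate 1, 843. Without an array, a group of 2 pools shares the spread estimated over both genotypes. With no detection calls or probe signals used, how far dim rows such as those of Pdia2 and Fkbp11 lie above background is not known here. The same holds for Ero1lb in the β-catenin activated pools, and for Ddit3, Atf3, Trib3 and Chac1, so little change in such a row may understate a change in message.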

Other observations

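The other genes past the threshold among the 33 further genes of the integrated stress response were the following. The cysteine-making enzyme gene Cth (log2 change 0.87, standard error 0.13, adjusted p = 0.00156) and the mitochondrial folate enzyme gene Mthfd2 (0.63, standard error 0.12, adjusted p = 0.00591) rose. The serine synthesis gene Phgdh (-0.71, adjusted p = 0.00701), the alanine transaminase gene Gpt2 (-1.02), the folate enzyme gene Aldh1l2 (-1.08), the proline synthesis gene Aldh18a1 (-0.59) and the leucine transporter gene Slc7a5 (-0.68) fell. The remaining 23 genes of the list did not pass, among them the serine and one-carbon genes Psat1 (0.43, adjusted p = 0.135), Shmt2 (0.18, adjusted p = 0.499) and Psph (0.01, adjusted p = 0.958) and the amino acid transporter genes Slc7a1 (-0.30, adjusted p = 0.122), Slc38a2 (0.20, adjusted p = 0.292) and Slc3a2 (-0.10, adjusted p = 0.64).

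Relatives of the members were looked up after the values above were seen. Sesn1, the p53-controlled relative of Sesn2, had 9.29, 9.10 and 9.31 (log2) in the β-catenin activated pools, against 9.78, 9.82 and 9.82 in the wild type pools, and fell (log2 change -0.58, standard error 0.094, adjusted p = 0.00224). Sesn3 had a log2 change of -0.31 (adjusted p = 0.151). Ern2, the form of Ern1 known from gut epithelium, had 5.89, 5.93 and 5.72 in the β-catenin activated pools, against 5.88, 5.73 and 5.76 in the wild type pools, and its change of 0.05 did not pass (95% interval -0.17 to 0.27, adjusted p = 0.81). Agr2, a disulfide isomerase of mucus-secreting cells, had 0.41 (adjusted p = 0.184), and Atf6b, the relative of Atf6, 0.10 (adjusted p = 0.598). Tmed6, of the p24 family of ER-to-Golgi cargo proteins, had 5.98, 5.92 and 6.09 in the β-catenin activated pools, against 7.35, 8.34 and 7.67 in the wild type pools (log2 change -1.79, standard error 0.21, adjusted p = 0.000269).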
